A study of Mus musculus with 6 samples.

Results

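Retinoic acid binding and metabolism was followed in the mouse oviduct through 9 genes, Crabp1, Crabp2, Stra6, Rdh10, Dhrs9, Aldh1a1, Aldh1a2, Aldh1a3 and Cyp26a1. They were taken by name from the 50559 genes that the single-cell matrices list, and all 9 had counts. The data are 6 droplet libraries of adult C57BL6 females in estrus, 3 of the distal section of the tube, which faces the ovary, and 3 of its proximal section, which joins the uterus. No mutation, transgene or treatment is named in the labels of either group. Each library combined the same section from a group of mice, so every p-value below measures the spread between such libraries, not between single animals. Libraries are named distal 1, 2 and 3 and proximal 2, 3 and 4, after the group numbers of the titles.

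Vitamin A reaches cells as retinol, which is oxidised first to retinal and then to retinoic acid, the ligand of nuclear receptors that act on target genes. Stra6 is a membrane receptor that takes up retinol from its carrier protein, Rdh10 and Dhrs9 encode enzymes that oxidise retinol to retinal, and Aldh1a1, Aldh1a2 and Aldh1a3 encode the dehydrogenases that make retinoic acid from retinal. Crabp1 and Crabp2 encode proteins that bind retinoic acid in the cytoplasm, and Cyp26a1 encodes the enzyme that clears it. In the female tract this pathway is known for patterning the duct in the embryo and for acting in the adult epithelium and stroma through the cycle.

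Cyp26a1 is a textbook target of retinoic acid, so the 250 bases before its start are shown here with the retinoic acid response element that a search found in them, beside the same stretch of Crabp1, a binding protein called between the regions in ciliated cells (below), in which the search found no match. The element searched was a half-site, which was AGGTCA or a variant of it (AGTTCA was allowed, as was GGGTCA and lastly also GGTTCA), followed by a second one after 5 bases or after 2 bases, on either strand. Both sequences are RefSeq promoters of build GRCm38.p6, plus strand, 5′ to 3′, and capitals mark the matched element, which lies on the opposite strand and ends 15 bases before the start of Cyp26a1.
Cyp26a1, chr19:37697558-37697807: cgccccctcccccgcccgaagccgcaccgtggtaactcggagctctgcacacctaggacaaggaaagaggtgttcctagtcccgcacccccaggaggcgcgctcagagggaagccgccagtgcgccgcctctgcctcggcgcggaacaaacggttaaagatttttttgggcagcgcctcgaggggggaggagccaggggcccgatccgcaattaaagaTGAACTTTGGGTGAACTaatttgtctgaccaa
Crabp1, chr9:54764498-54764747: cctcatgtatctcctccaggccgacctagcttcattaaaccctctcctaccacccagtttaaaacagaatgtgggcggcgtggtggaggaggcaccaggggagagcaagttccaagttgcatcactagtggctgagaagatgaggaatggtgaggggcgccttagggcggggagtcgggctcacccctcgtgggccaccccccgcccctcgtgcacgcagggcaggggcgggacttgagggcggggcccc
Promoters of 6 of the 9 members were matched by symbol (Crabp1, Stra6, Dhrs9, Aldh1a1, Aldh1a2 and Cyp26a1), in 10 windows of 300 bases. The repeat spaced by 5 bases was in 32 of 32851 windows of all genes (0.0974%) and, among these 10, in that of Cyp26a1 alone. The repeat spaced by 2 bases was in 88 windows of all genes (0.268%) and in none of the 10. A match is a stretch of letters, not a measured binding site.

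A total of 18466 cells passed the filters, and the libraries differed widely in size. Distal libraries held 4115 to 6652 kept cells and proximal ones 325 to 1133, with median counts of unique molecular identifiers (UMIs, 1 per captured transcript) of 2933 to 4642 in distal and 730, 1084 and 3362 in proximal libraries. Of all barcode sequences, 211 occurred in more than 1 library, with at most 58 in a pair of libraries. Cells were grouped in 12 named classes. Non-ciliated epithelium, the secretory lining, had 898 to 1827 cells in each distal library and 288, 92 and 146 in proximal 2, 3 and 4. Ciliated epithelium had 427 to 1153 cells in each distal library and 24, 7 and 33 in the proximal ones, fibroblasts had 2268 to 2390 and 131 to 611, and mesothelium, the outer covering, had 38, 2 and 16 distal cells and 0, 7 and 45 proximal ones. Epithelial markers were detected for 10 of 10 genes in the non-ciliated class in both regions, ciliated markers for 10 of 10 in the ciliated class, fibroblast markers for 7 of 7 in fibroblasts and mesothelial markers for 7 of 7 in mesothelium. The classes were named with these same lists, so this is no test of their identity. Detection also crossed classes. Fibroblast markers were detected for 7 of 7 in distal non-ciliated cells, at a sum of 78.2 CPM against 19740 CPM in distal fibroblasts. Levels below are UMIs of a gene per 1000000 UMIs of the class in a library (CPM). They are compared for 1 gene across cells and libraries and not between genes, because 3′ capture differs from gene to gene. A library entered a mean or a test with at least 10 cells of the class. A smaller number of expressing cells and less RNA in each cell cannot be told apart in these sums.

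The retinoic acid binding proteins were the members called between the regions, each in a different epithelial class. Crabp2 was nearly absent from distal non-ciliated epithelium, with 0.0951, 0.331 and 0.327 CPM in distal 1, 2 and 3, and stood at 101.6, 89.4 and 42.4 CPM in proximal 2, 3 and 4. The lowest proximal library lay far above the highest distal one. Behind these values were 6 UMIs in 3953 distal cells and 121 UMIs in 526 proximal cells, the latter carried by 51 cells with up to 9 UMIs each. Crabp2 rose by 8.11 ± 0.66 on the log2 scale (SE, edgeR quasi-likelihood test, Benjamini-Hochberg adjusted p = 0.000889, 3 libraries against 3). It was the 1 member called of 4 tested in this class, where 426 of 12818 genes were called (3.32%), 313 of them higher (2.44%) and 113 lower in proximal cells (0.882%). The other 5 members had too few counts to be tested. In each of the alternative fits that tested it Crabp2 stayed past the threshold. The exception was a fit without clusters E11 and E13, described next. It held 3 distal libraries and proximal 2 and 4, Crabp2 had too few counts there to be tested, and 0 of 14444 genes were called by edgeR, with 1415 at an unadjusted p under 0.05.

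Within the non-ciliated class, Crabp2 was concentrated in 2 of its clusters, which hold nearly all of their cells in proximal libraries. Cluster E11, led by Penk and Serpina1e, had 81 cells of proximal 3 (88.0% of that library's non-ciliated cells) and 79 of proximal 4 (54.1%), with Crabp2 at 92.7 and 57.0 CPM. Cluster E13, led by Serpina1e and 9530014B07Rik and with Crabp2 among its leading genes, had 86 cells of proximal 2 (29.9%), with Crabp2 at 325 CPM. The other clusters with proximal cells gave another picture. In E2 (Hbb-bt, Hbb-bs) and E4 (Upk1a, S100b), which hold cells of both regions, no Crabp2 UMI was counted in either region. Crabp2 UMIs were seen in 23 of 163 proximal E11 cells (14.1%, exact 95% binomial interval 9.16 to 20.4) and in 28 of 90 proximal E13 cells (31.1%, 21.8 to 41.7). With each cell thinned to 500 UMIs these shares were 3.07% and 16.7%. In T and NK cells, which should lack the gene, none of 253 proximal cells had a UMI, which at 3 counts of the total allows a share of up to 1.19%. Their median depth was 885 UMIs, against 3027 in E11 and 1849 in E13. The region contrast of Crabp2 is therefore also a contrast of which clusters each region held, and whether it differs by region within 1 of these clusters was not tested, because E11 and E13 had 7 and 3 distal cells.

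Crabp1, the second cytoplasmic binding protein, showed its region difference in ciliated cells. It stood at 0.795, 3.11 and 2.85 CPM in distal 1, 2 and 3 and at 87.9 and 92.3 CPM in proximal 2 and 4, while proximal 3 had too few ciliated cells to enter. The groups did not overlap. Crabp1 rose by 5.16 ± 0.64 on the log2 scale (edgeR, adjusted p = 0.0303, 3 libraries against 2) and was the 1 member called of 5 tested, in a class where 91 of 12952 genes were called (0.703%), 49 of them higher (0.378%) and 42 lower in proximal cells (0.324%). The proximal values rest on 9 UMIs in 3 cells of proximal 2 and 10 UMIs in 4 cells of proximal 4. The call was lost without distal 2 (adjusted p = 0.0752), without proximal 2 (0.0641) or without proximal 4 (0.0903), with log2 fold changes of 5.36, 4.95 and 5.20.

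Proximal ciliated cells lay almost wholly in cluster E10 (Wfdc12, Mt3; 21 of 24 cells of proximal 2) and cluster E7 (Syne1, Dnah12; 29 of 33 cells of proximal 4), which both also hold distal cells. In E10 Crabp1 was at 0, 22.9 and 0 CPM in distal 1, 2 and 3 and at 151 CPM in proximal 2. In E7 it was at 2.11, 7.10 and 0 CPM in the distal libraries and at 116 CPM in proximal 4. A fit on the cells of E7 and E10 alone gave Crabp1 a log2 fold change of 5.01 ± 0.85 (edgeR, adjusted p = 0.0331). Each of these clusters had 1 proximal library with at least 10 cells, and no test was run within 1 of them. No Crabp1 UMI was counted in proximal non-ciliated epithelium (1590187 UMIs in all), against 49 UMIs in the distal class, where the 3 libraries had 2.38, 0.331 and 2.40 CPM. At 3 counts over the proximal libraries the bound is a level 1.01-fold lower, so a fall in this class was not shown. Tested as an interaction with the library as a block, the region difference of Crabp1 differed between non-ciliated and ciliated epithelium (edgeR, adjusted p = 0.00501, 98 of 14545 genes called, 0.674%). That of Crabp2 between these classes was not called (adjusted p = 0.349), with 2 UMIs in all ciliated cells.

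**Figure D1:**
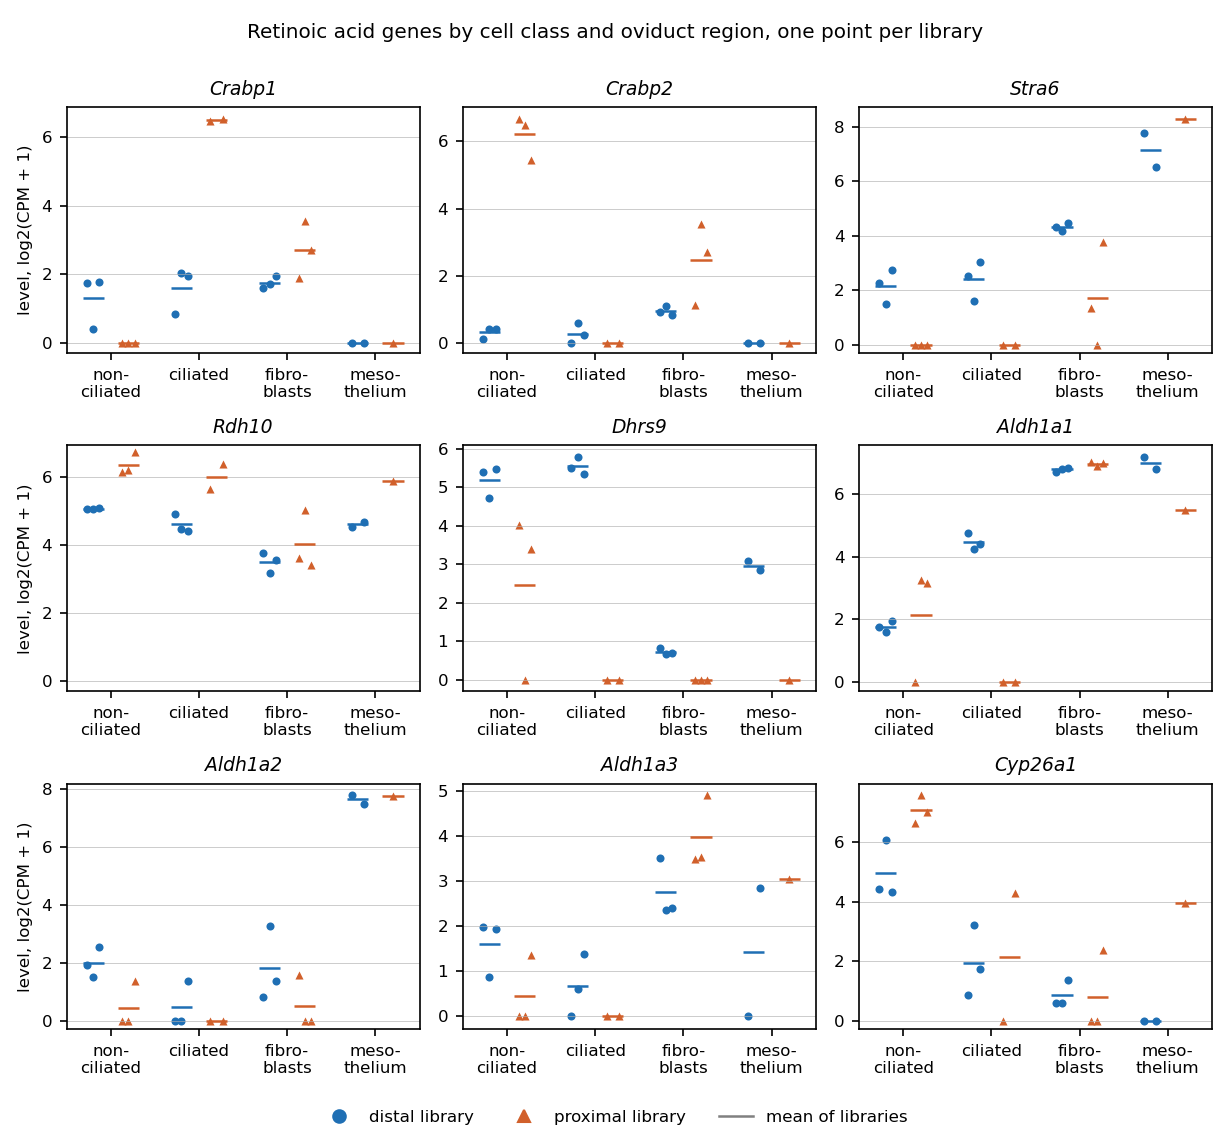
Level of each of the 9 genes as log2(CPM + 1) in non-ciliated and ciliated epithelium, fibroblasts and mesothelium, with 1 point per library of at least 10 cells (circles distal, triangles proximal) and a line at the mean of the log2 values. Crabp2 separates the regions in non-ciliated cells (0.0951 to 0.331 CPM distal, 42.4 to 101.6 proximal), Crabp1 in ciliated cells (0.795 to 3.11 distal, 87.9 and 92.3 proximal), and Aldh1a2 and Stra6 are highest in mesothelium.

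Crabp1 and Crabp2 were low in the other compartments, with one exception each. In fibroblasts Crabp1 was at 2.39 ± 0.40 CPM (SD, n = 3) in distal and 6.32 ± 4.00 (n = 3) in proximal libraries and was not called (edgeR, log2 fold change 0.66 ± 0.52, adjusted p = 0.583). Within fibroblasts the highest Crabp1 was in cluster C14 (Apod, Pi16), with 30.3, 21.3 and 16.9 CPM in proximal 2, 3 and 4 (6, 1 and 4 UMIs) and 35.8 CPM in distal 1 (1 UMI). That cluster holds 6.13%, 50.4% and 30.1% of the fibroblasts of these libraries and at most 0.472% of those of any distal library. Crabp2 reached 35.6, 73.7 and 67.5 CPM in granulosa or luteal cells of distal 1, 2 and 3, a class of ovarian type with 63 cells and none in proximal libraries. Mesothelium had neither gene, with 0 UMIs of 603025, which allows up to 4.97 CPM. The interaction test gave the Crabp2 difference as 6.54 ± 0.94 log2 units larger in non-ciliated epithelium than in fibroblasts (edgeR, adjusted p = 0.00271, 266 of 15917 genes called, 1.67%). The median of all genes in that test was -0.21, or 0.0046 with median-ratio scaling, under which the difference was 6.86. Of the genes called, 92 had a positive and 174 a negative difference, and with median-ratio scaling 138 and 150.

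Cyp26a1, the retinoic acid clearing enzyme, was a gene of non-ciliated epithelium. It was at 20.7, 67.1 and 18.96 CPM in distal 1, 2 and 3 and at 98.8, 192 and 129 CPM in proximal 2, 3 and 4. The groups did not overlap, and the highest distal library was distal 2. The log2 fold change was 1.73 ± 0.56 and was not called (edgeR, adjusted p = 0.124). Outside this class it was low, at 3.80 ± 3.96 CPM in distal ciliated cells (n = 3), at 0 and 18.4 CPM (2 UMIs) in the ciliated cells of proximal 2 and 4, and at 1.13 ± 1.60 over all 6 fibroblast libraries. In T and NK cells 3 UMIs were counted in all.

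Cyp26a1 was unevenly spread over the non-ciliated clusters, and its place there differed in part from that of Crabp2, as E11 held both. In distal libraries it averaged 62.2 ± 46.4 CPM in E4 and 54.5 ± 13.4 in E2, and 5.50 ± 5.83 in E3 (Pde4b, Rhoj), a cluster of 904 distal cells and 1 proximal one. In proximal libraries it was at 190 and 135 CPM in E11, and at 31.6 CPM in E13, where Crabp2 was highest. Of 170 E11 cells 23 had a Crabp2 UMI, 60 a Cyp26a1 UMI and 4 both. Of 93 E13 cells the numbers were 28, 5 and 0. Whether the numbers with both differ from those of independent genes was not tested. Inside E4 Cyp26a1 was at 40.4, 115.5 and 30.8 CPM in distal 1, 2 and 3 and at 162 and 312 CPM in proximal 2 and 4. That difference was not called (log2 fold change 1.39 ± 0.49, edgeR adjusted p = 0.230), nor was that inside E2 (0.70 ± 0.54, adjusted p = 0.856). In E4, 84 of 3963 genes were called (2.12%) and in E2 37 of 5490 (0.674%), with 0 of 2 tested members called in either. At an unadjusted p under 0.05 were 2 members in E4 and 0 in E2, beside 382 and 400 of all tested genes. Leaving out distal 2, the highest of the distal values, gave E4 a log2 fold change of 2.26 ± 0.46 (adjusted p = 0.00985).

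**Figure D2:**
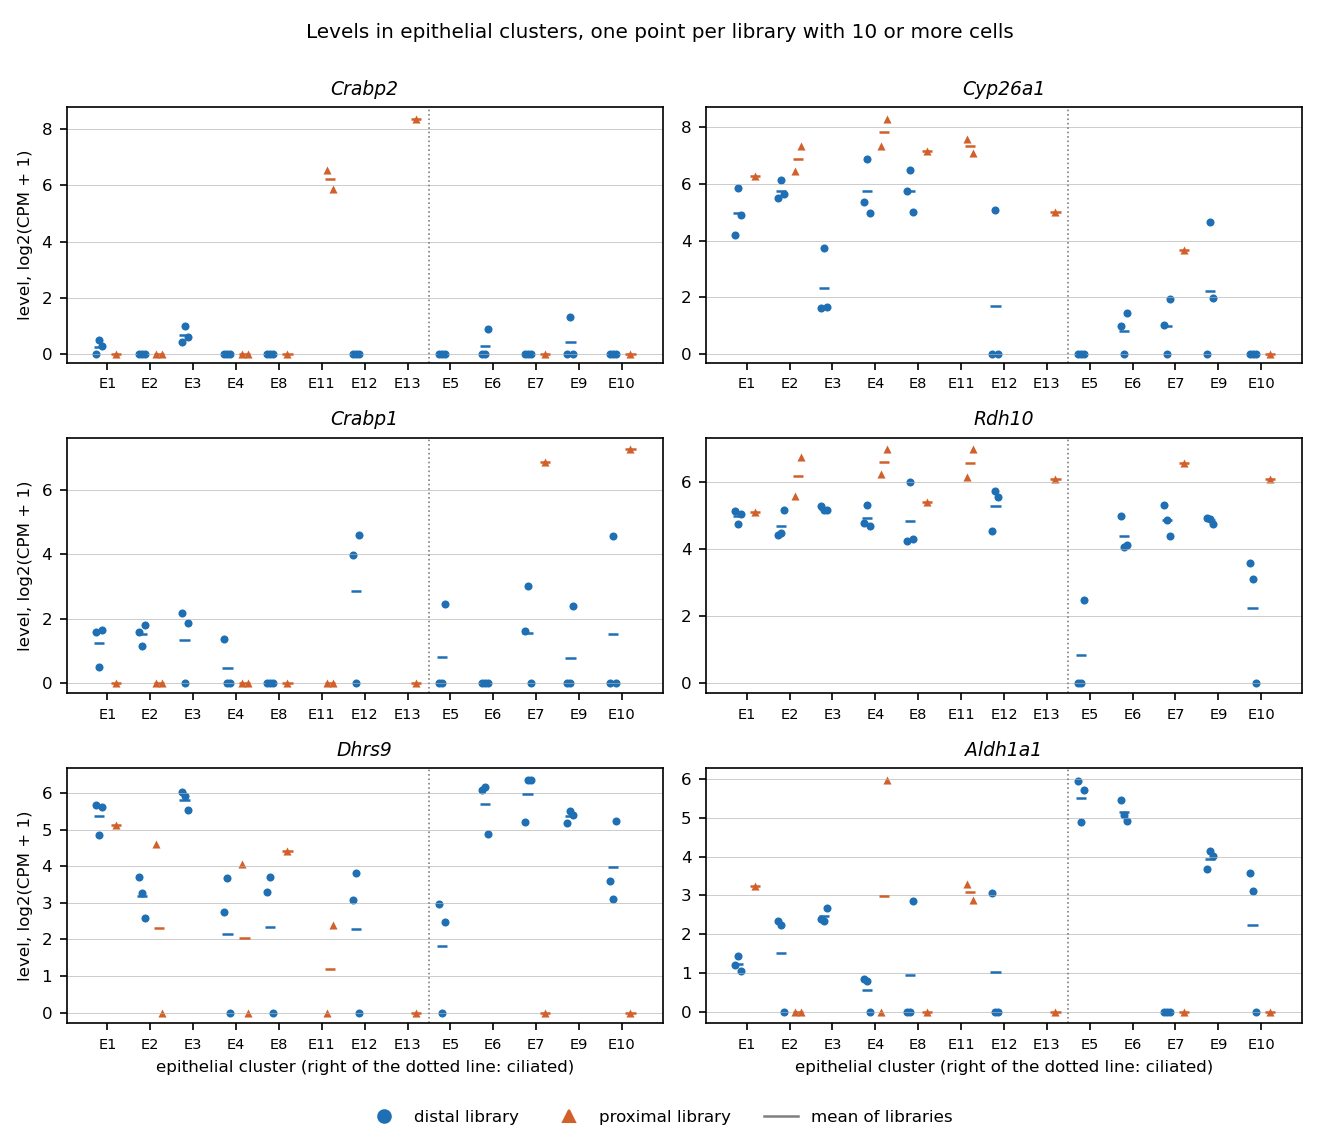
Levels of 6 members as log2(CPM + 1) in the epithelial clusters, 1 point per library with at least 10 cells in the cluster (circles distal, triangles proximal), with ciliated clusters right of the dotted line and lines at the mean of the log2 values. Crabp2 stands in E11 (92.7 and 57.0 CPM) and E13 (325 CPM), Crabp1 in the proximal cells of E7 and E10 (116 and 151 CPM), and Aldh1a1 in ciliated clusters E5, E6 and E9.

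Among the retinol oxidising enzymes, Rdh10 was found in every epithelial class and was higher in each proximal library, whereas Dhrs9 was lower. In non-ciliated cells Rdh10 was at 32.1, 32.7 and 32.9 CPM in distal 1, 2 and 3 and at 69.6, 72.4 and 106.8 CPM in proximal 2, 3 and 4. The distal libraries were nearly equal and all proximal ones lay above them, but the log2 fold change of 1.20 ± 0.34 was not called (edgeR, adjusted p = 0.0862). In ciliated cells the values were 29.4, 21.2 and 20.5 CPM against 48.9 and 83.0 CPM, again without overlap and not called (1.40 ± 0.46, adjusted p = 0.173). Inside E4 Rdh10 averaged 29.9 ± 7.5 CPM in 3 distal libraries and stood at 75.0 and 125 CPM in proximal 2 and 4 (1.38 ± 0.51, adjusted p = 0.259). In fibroblasts it was at 10.5 ± 2.28 CPM distal and 17.7 ± 12.4 proximal, with a log2 fold change of 0.16 ± 0.38.

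Dhrs9 was at 41.3, 25.3 and 43.1 CPM in distal and at 15.3, 0 and 9.42 CPM in proximal non-ciliated epithelium. The groups did not overlap and the difference was not called (log2 fold change -1.94 ± 0.58, edgeR adjusted p = 0.0990). In ciliated cells it was at 44.1, 54.4 and 39.4 CPM in distal 1, 2 and 3, and no UMI was counted in proximal 2 and 4, which at 3 counts over the 2 libraries makes the level at least 3.05-fold lower (adjusted p = 0.0738). Fibroblasts had 0.328 ± 0.365 CPM over 6 libraries, and blood endothelium and T and NK cells had no UMI. Among the non-ciliated clusters Dhrs9 averaged, in distal libraries, 56.0 ± 9.86 CPM in E3 and 42.0 ± 12.4 in E1 (Dcpp2, Dcpp1), against 8.58 ± 3.59 in E2 and 5.83 ± 5.93 in E4. E3 had 1 proximal cell and E1 32, and the E1 cells of proximal 4 were at 33.7 CPM (4 UMIs). The ciliated cluster E7, which holds cells of both regions, averaged 65.9 ± 25.9 CPM in distal libraries. There 86 of 391 distal cells had a Dhrs9 UMI and 0 of 37 proximal cells did, which at 3 counts allows up to 8.11%, with median depths of 4698 and 2254 UMIs. Without E11 and E13 its log2 fold change in the class was -0.73 ± 0.47 (adjusted p = 0.618), that of Cyp26a1 was 1.59 ± 0.61 (0.438) and that of Rdh10 was 0.87 ± 0.41 (0.517).

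A term for distal 2 and proximal 2, the libraries to which both sets of label numbers give the number 2, was added after the data were seen and changed these calls. With it Cyp26a1 (log2 fold change 2.01 ± 0.41, adjusted p = 0.00796), Rdh10 (1.21 ± 0.27, 0.0123) and Dhrs9 (-1.89 ± 0.49, 0.0257) passed in non-ciliated epithelium beside Crabp2, in a fit that called 1522 genes. Leaving out proximal 2 also called all 4, with 3243 genes called in the class.

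**Figure D3:**
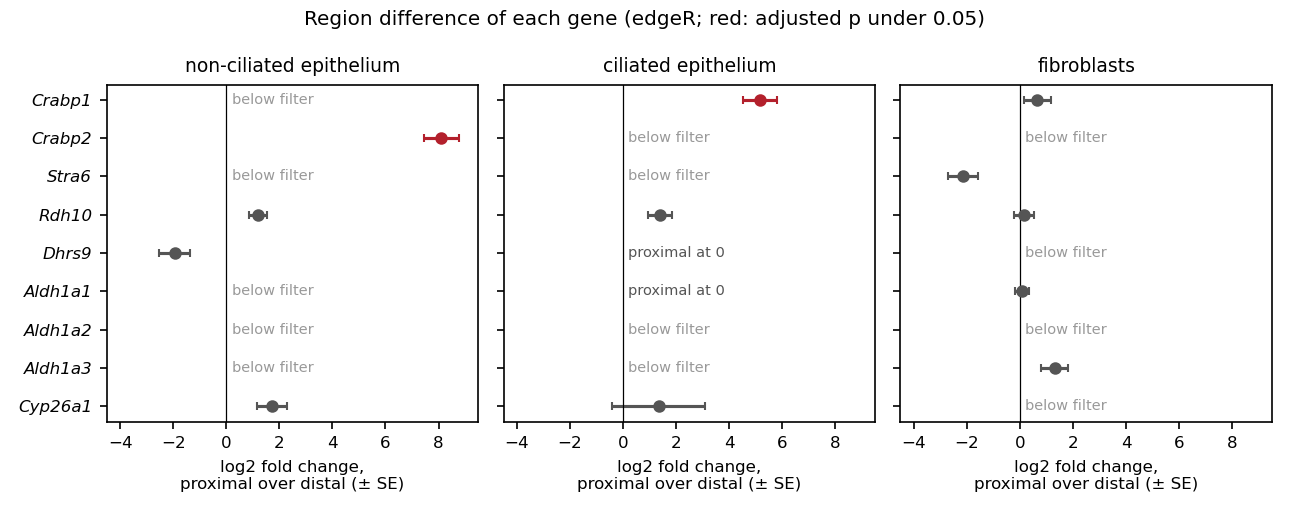
Log2 fold change of proximal over distal with its standard error for each member that was tested in non-ciliated epithelium, ciliated epithelium and fibroblasts, with adjusted p under 0.05 in red. Crabp2 (8.11 ± 0.66) and Crabp1 (5.16 ± 0.64) are the 2 called values, and members with no proximal count or too few counts for the test are marked in words.

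The dehydrogenases that make retinoic acid were divided among cell classes. Aldh1a1 was highest in fibroblasts and mesothelium, with pooled levels of 111.3 and 106.1 CPM. In fibroblasts it was at 103, 111 and 114 CPM in distal 1, 2 and 3 and 129, 117 and 127 CPM in proximal 2, 3 and 4. All proximal libraries lay just above the distal ones in CPM, yet the fitted log2 fold change was 0.08 ± 0.26 (edgeR, adjusted p = 0.938), which at 1 SE spans both directions. It was also spread over the fibroblast clusters, with distal means of 116.7 ± 6.75 CPM in C1 (Htra3, Dpt), 101.7 ± 15.5 in C2 (Mgp, Dcn) and 97.7 ± 24.0 in C5 (Cacna1d, Sfrp2), and a proximal mean of 206 ± 42.3 in C14. The lowest distal mean was 25.3 ± 29.2 in the dividing cells of C25 (Ube2c, Birc5). Of the 3 fibroblast clusters with enough cells of both regions, C1, C2 and C11 (Lsamp, Ly6h), none had a member called. Genes called were 54 of 10182 (0.53%), 167 of 9900 (1.69%) and 31 of 9122 (0.34%). At an unadjusted p under 0.05 Aldh1a3 in C2 was the 1 member, beside 1391, 1225 and 417 of all tested genes in C1, C2 and C11.

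In the distal epithelium Aldh1a1 was a gene of part of the ciliated cells. It was at 25.8, 18.1 and 20.3 CPM in distal ciliated cells and at 2.38, 1.98 and 2.83 CPM in distal non-ciliated cells, without overlap between these classes. The ciliated clusters differed. E5 (1700094D03Rik, Ccdc153) had 60.9, 28.7 and 51.4 CPM, E6 (Rgs22, Dnah12) 43.5, 32.8 and 29.3 CPM, and E7 none in any library. Proximal ciliated cells, nearly all in E7 and E10, had no Aldh1a1 UMI, which at 3 counts makes their level at least 1.49-fold lower than the distal one and was not called (edgeR, adjusted p = 0.149). Proximal non-ciliated cells had 7 UMIs (5.46 ± 4.74 CPM, n = 3). The 210721 UMIs of the ciliated cells of proximal 2 and 4 were too few to tell the order of the 2 classes there. Aldh1a7 is a close relative of Aldh1a1 whose reads could be split between the 2 genes. It had 8, 11, 2 and 0 UMIs in non-ciliated cells, ciliated cells, fibroblasts and mesothelium, and what such a split did to the values was not tested.

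Aldh1a2 was a gene of the mesothelium, at 219 and 178 CPM in distal 1 and 3 and 212 CPM in proximal 4. In non-ciliated cells, ciliated cells and fibroblasts the libraries lay between 0 and 8.68 CPM. Mesothelium had a region comparison of 2 distal libraries with 1 proximal one and was not tested. The ratio of proximal to distal Aldh1a2 was 1.04 with an exact 95% counting interval of 0.659 to 1.60, which covers counting error only. The 7 fibroblast markers summed to 6673 CPM in distal and 4585 CPM in proximal mesothelium, beside 4320 and 4285 CPM for the 7 mesothelial ones, and their part in these values was not tested. Aldh1a1 was also present there at 145 and 110 CPM in distal 1 and 3 and 43.9 CPM in proximal 4 (6 UMIs). Aldh1a2 was also counted in fibroblast cluster C10 (Ramp3, Lsamp) of distal 2, with 91 UMIs or 26.1 CPM, where distal 3 had 0 UMIs in 137 cells. The value of 8.68 CPM in all fibroblasts of distal 2, against 0.766 and 1.57 in the other distal libraries, came mainly from that cluster and so from 1 library.

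Aldh1a3 was found chiefly in fibroblast cluster C2, at 26.2, 16.5 and 15.98 CPM in distal 1, 2 and 3 and at 32.9, 31.1 and 58.3 CPM in proximal 2, 3 and 4 (1 UMI in proximal 3). The groups did not overlap and the difference in C2 was not called (edgeR, log2 fold change 1.01 ± 0.36, adjusted p = 0.218). Over all fibroblasts the levels were 10.5, 4.10 and 4.25 CPM against 10.2, 10.6 and 29.3 CPM, with overlap between distal 1 and proximal 2 (1.32 ± 0.51, adjusted p = 0.220). In the epithelium the gene was at 6.98 ± 2.02 CPM in distal E3 and at 0.366 ± 0.461 in distal E1.

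Stra6, the retinol uptake receptor, was highest in mesothelium, at 219 and 92.1 CPM in distal 1 and 3 and 314 CPM in proximal 4. Of 108 mesothelial cells 55 had an Aldh1a2 UMI, 45 a Stra6 UMI and 28 both. Fibroblasts had 19.2, 17.04 and 21.2 CPM in distal 1, 2 and 3 and 1.56, 0 and 12.6 CPM in proximal 2, 3 and 4. The groups did not overlap, and the log2 fold change of -2.15 ± 0.57 was not called (edgeR, adjusted p = 0.0717). In fibroblasts 0 of 5 tested members were called, where 373 of 13747 genes were (2.71%), 1.9% higher and 0.815% lower in proximal cells. DESeq2 also called 0. At an unadjusted p under 0.05, where edgeR had 2241 of the 13747 genes, were 2 of these members, Stra6 and Aldh1a3. With the term for distal 2 and proximal 2 both passed (adjusted p = 0.0146 and 0.0446), and without proximal 4 Stra6 passed with a log2 fold change of -3.58 ± 0.53 (0.00713). Without proximal 2 it was -1.13 ± 0.49 (0.147).

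The distal fibroblast Stra6 came mainly from cluster C5, where it was at 80.8, 81.6 and 74.8 CPM in distal 1, 2 and 3 (79.0 ± 3.74 CPM). C5 held 18.4%, 14.1% and 20.2% of the distal fibroblasts and 2 proximal cells in all. Elsewhere in distal fibroblasts Stra6 was at 7.58 ± 1.19 CPM in C1, at 0.550 ± 0.673 in C2, and at 12.9 and 23.3 CPM in the C10 cells of distal 2 and 3. Proximal cells of C1 and C2 had no Stra6 UMI, but with 90754 UMIs of proximal C1 this was not enough to detect the distal level there. Proximal Stra6 UMIs lay mostly in C14, with 15.2, 0 and 33.8 CPM in proximal 2, 3 and 4. In non-ciliated epithelium Stra6 was at 3.80, 1.82 and 5.67 CPM in the distal libraries, mostly from E3 (11.5 ± 2.87 CPM), and at 0 in all proximal ones. E3 carries Msln, a mesothelial marker, among its leading genes. The 7 mesothelial markers summed to 354 to 645 CPM in the non-ciliated cells of distal libraries and 12.8 to 153 CPM in proximal ones, where Upk3b, Lrrn4 and Muc16 were at 0. Their part in the Stra6 values was not tested.

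**Figure D4:**
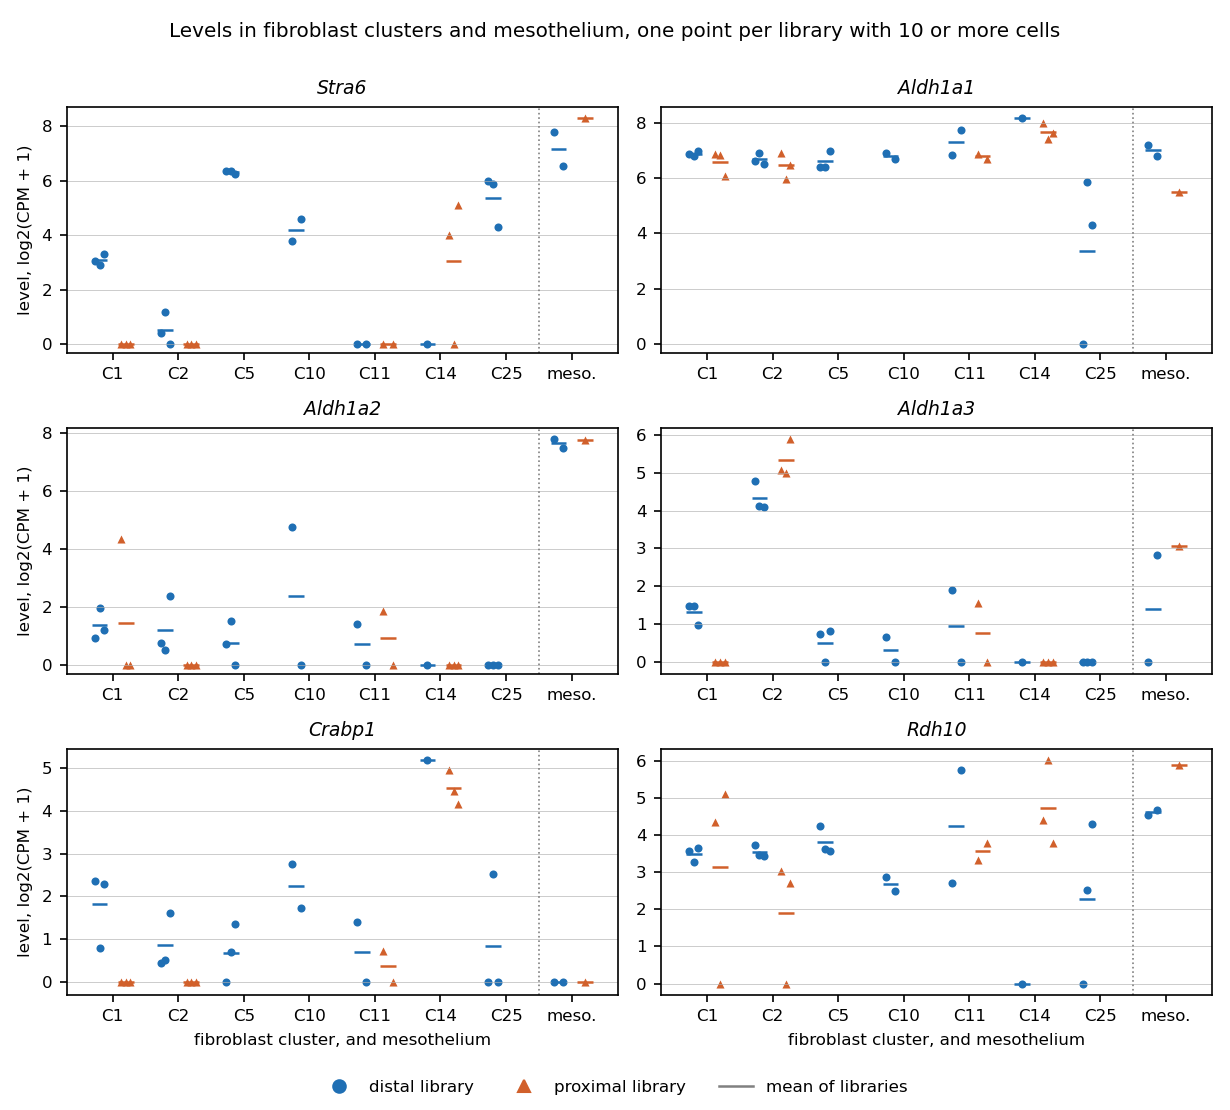
Levels of 6 members as log2(CPM + 1) in the fibroblast clusters and in mesothelium (right of the dotted line), 1 point per library with at least 10 cells (circles distal, triangles proximal), with lines at the mean of the log2 values. Stra6 stands in C5 (74.8 to 81.6 CPM) and mesothelium, Aldh1a3 in C2 (15.98 to 58.3 CPM), Aldh1a2 in mesothelium (178 to 219 CPM) and Crabp1 in C14, whereas Aldh1a1 is in all clusters.

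Among the named classes, the mean over libraries was highest in mesothelium for Stra6 (208.5 ± 111.5 CPM, n = 3) and Aldh1a2 (203 ± 22), in fibroblasts for Aldh1a1 (116.7 ± 9.78, n = 6) and Aldh1a3 (11.5 ± 9.24), in non-ciliated epithelium for Cyp26a1 (87.7 ± 66.7, n = 6) and Rdh10 (57.7 ± 30.5), in ciliated epithelium for Crabp1 (37.4 ± 48.1, n = 5) and Dhrs9 (27.6 ± 25.7), and in granulosa or luteal cells for Crabp2 (58.9 ± 20.4, n = 3). Several neighbours in these orders lay within their spread. Mesothelium (99.8 ± 51.4) followed fibroblasts for Aldh1a1, ciliated cells (40.6 ± 26.3) followed non-ciliated ones for Rdh10, and non-ciliated cells (22.4 ± 17.4) followed ciliated ones for Dhrs9. For Crabp2 non-ciliated cells (39.0 ± 46.9, n = 6) came next, and their proximal libraries alone averaged 77.8 ± 31.3 (n = 3). For Crabp1 fibroblasts (4.35 ± 3.33, n = 6) came next. Distal ciliated cells averaged 2.25 ± 1.27 (n = 3), so the first place of ciliated cells rests on proximal 2 and 4. For Aldh1a2 the next class was myeloid at 13.7 ± 30.6, from 3 UMIs in 1 library, and for Stra6 myeloid at 17.9 ± 32.5. With pooled counts in place of the mean over libraries, each member kept its highest named class. Pooled Dhrs9 was at 42.5 CPM in ciliated and 36.6 CPM in non-ciliated epithelium.

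Of the 42 other genes of the pathway, 4 were called in non-ciliated epithelium. Of 23 tested there, 1 rose and 3 fell, where 2.44% of all tested genes were called higher and 0.882% lower. The list was chosen with earlier results of these data known. Its median log2 fold change was -0.49 beside -0.08 for all tested genes. Fabp5, which encodes a fatty acid binding protein that can also carry retinoic acid, rose by 3.24 ± 0.71 (edgeR, adjusted p = 0.0381), from 5.34 ± 2.41 CPM in distal to 48.0 ± 45.5 in proximal libraries (n = 3 each). Its level in the E13 cells of proximal 2 was 199 CPM, and inside E4 it rose from 8.01 ± 6.99 to 101.8 ± 32.3 CPM (2.99 ± 0.66, adjusted p = 0.0131). Nr2f1, an orphan nuclear receptor responsive to retinoic acid, fell by 3.15 ± 0.58 (adjusted p = 0.0220), from 25.8 ± 7.22 to 2.44 ± 2.17 CPM. Rarres2, which encodes the secreted protein chemerin, fell by 2.29 ± 0.53 (adjusted p = 0.0488), from 17.3 ± 5.92 to 3.86 ± 0.62 CPM. These calls changed when single libraries were left out. Nr2f1 was called without proximal 2 and lost when any 1 of the other 5 libraries was left out (adjusted p = 0.0698 to 0.130). Rarres2 was likewise called without proximal 2, lost without distal 2, proximal 3 or proximal 4 (0.102 to 0.158) and not tested without distal 1 or distal 3. Fabp5 was called without proximal 2 or proximal 4 and lost without distal 1, 2 or 3 or proximal 3 (0.0857 to 0.223), and inside E4 it was lost without distal 1 (0.155) or proximal 2 (0.393). Without E11 and E13 none of these 3 genes was called (edgeR, adjusted p = 0.393 for Nr2f1, 0.393 for Rarres2 and 0.210 for Fabp5). Without E3 the log2 fold change of Rarres2 was -1.27 ± 0.52 and not called (0.251), while Nr2f1 and Fabp5 stayed called (0.0363 and 0.0494). Rarres2 was also lost with doublets kept (0.0615) and with a block by title number (0.219), and Fabp5 with thinned distal sums (0.0737).

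In ciliated cells 0 of 23 tested pathway genes rose and 2 fell, where 0.378% of all tested genes were called higher and 0.324% lower. The median was -1.11 beside -0.22 for all genes. The 2 that fell were again Nr2f1 (76.2 ± 13.2 CPM in 3 distal libraries) and Rarres2 (73.7 ± 16.9 CPM), both with no UMI in proximal 2 and 4. Their levels were at least 5.53-fold and 5.42-fold lower there (edgeR, adjusted p = 0.0473 and 0.0498). Leaving out any 1 of the 5 libraries lost both calls (adjusted p = 0.0600 to 0.0981 for Nr2f1 and 0.0683 to 0.109 for Rarres2), as did median-ratio scaling (0.0513 and 0.0525) and the fit on E7 and E10 alone (0.277 and 0.222). In fibroblasts 0 of 25 were called, where 2.71% of all tested genes were (median 0.27 beside -0.03). At an unadjusted p under 0.05 were 9 of the 25, beside 2241 of all 13747 tested genes. Among the receptor genes, Rara had the highest mean level in non-ciliated (53.6 ± 23.4 CPM, n = 6) and ciliated cells (102.9 ± 19.6, n = 5). In fibroblasts it was Rarg (55.7 ± 20.2, n = 6). In mesothelium Rxra (48.1 ± 34.4, n = 3) and Rarg (46.6 ± 23.3) lay within their spread, and with pooled counts Rarg was higher (43.1 against 39.8 CPM). Such orders between genes also carry differences in 3′ capture. By edgeR 0 of the 6 receptor genes were called in any of the 3 tested classes. At an unadjusted p under 0.05 were 1 of 4 tested in non-ciliated cells, 1 of 5 in ciliated cells and 0 of 5 in fibroblasts. Of all tested genes 2201 of 12818, 2174 of 12952 and 2241 of 13747 were. Cyp26b1 and Cyp26c1, which encode the other two retinoic acid clearing enzymes, were at or below 0.280 CPM on average in both epithelial classes, and Cyp26b1 averaged 3.93 ± 5.23 CPM in fibroblasts.

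Over the 33 clusters, each summed over libraries, the genes whose log2(CPM + 5) profile was most like that of a member by Pearson r were taken for the 5 members with at least 500 UMIs. Dhrs9 was followed by Plch1 (r = 0.939), Pof1b (0.938) and 3100003L05Rik (0.906). Cyp26a1 was followed by Lrrc26 (0.930), 2300002M23Rik (0.921) and Ly6f (0.919). Aldh1a1 was followed by the fibroblast genes Larp6 (0.862), Has1 (0.857) and Fbln1 (0.856), Rdh10 by Osbpl2 (0.816), Klf5 (0.811) and Ldhd (0.807), and Stra6 less closely by Mpp6 (0.660), Nrgn (0.642) and Gm38543 (0.638). Among the members themselves the closest pair was Rdh10 and Cyp26a1 (r = 0.683), followed by Crabp2 and Rdh10 (0.525) and Stra6 and Aldh1a2 (0.475). These are descriptions over clusters that share libraries and differ in depth.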

How the data were processed

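Gene counts were deposited by the authors as 1 unnormalised 10x Genomics Single Cell 3′ v2 matrix of UMI counts per library. Cell Ranger 6.1.2 and build mm39 stand in the submitters' processing notes, whereas the file headers give Cell Ranger 7.0.0. Every deposited barcode held at least 500 UMIs, and library totals ran from 426707 to 32488145 UMIs.

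Of 20731 barcodes, 1447 with under 250 genes or over 20% mitochondrial UMIs were removed, then 818 as doublets (highest scores against simulated doublets, 0.8% per 1000 barcodes). Cells were scaled to 10000 UMIs, log transformed and clustered without integration (2000 variable genes, 30 principal components, 15 neighbours, Leiden resolution 1). The members, pathway genes and markers were left out of the variable genes. Clusters were named by marker lists and epithelial cells were clustered again with 20 components. In the epithelium 1 cluster of 40 cells with fibroblast markers was set aside.

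For each class the counts of a library were added up and tested with edgeR 4.0.16 (TMM, filterByExpr with minimum count 10 and minimum total 15, quasi-likelihood, Benjamini-Hochberg threshold 0.05, R 4.3.3), checked on simulated data. Groups with 0 counts were set at 3 counts over the group for a bound. Intervals are exact and cover counting error only. Levels of class and cluster are CPM of the summed counts without TMM. Alternatives were median-ratio scaling, DESeq2 1.42.0, no filter on low counts, replicate blocks, thinned distal sums, doublets kept, at least 5 cells, resolution 0.5 and leaving out each library. The term for distal 2 and proximal 2, the fits without E11 and E13, without E3 or on E7 and E10 alone, and the fits in fibroblast clusters were added after seeing the data.

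The members, the pathway list of 42 genes and the markers were chosen with earlier results of these data known. All 9 members are named, with other pathway genes that passed the test in a class and up to 3 genes most like each member with at least 500 UMIs. Of the pathway genes among the highest 3 of their role, only some are named, and most are not described. The result of 1 pathway gene is not reported here.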

Additional observations from a re-analysis of the deposited data

Results flagged for a closer look

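The region difference of Crabp1 differed between non-ciliated and ciliated epithelium by an interaction test with the library as a block (edgeR, adjusted p = 0.00501). Crabp1 was higher in both proximal libraries that entered for ciliated cells (87.9 and 92.3 CPM, against 0.795 to 3.11 CPM distal) and at 0 in all 3 proximal libraries of non-ciliated cells. At 3 counts that 0 gives a bound of a level 1.01-fold lower, so a fall in non-ciliated cells was not shown. Without proximal 2 or proximal 4 the difference was not called (adjusted p = 0.0986 and 0.162).

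The region difference of Crabp2 differed between non-ciliated epithelium and fibroblasts by the same kind of test (edgeR, adjusted p = 0.00271). Fibroblasts had 26 Crabp2 UMIs in 6986 distal cells and 8 in 1117 proximal cells, whereas non-ciliated epithelium had 6 and 121. The adjusted p stayed between 0.00116 and 0.0124 with median-ratio scaling and when each library was left out.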

How the results depend on the processing

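Crabp2 in non-ciliated epithelium was called in every alternative that tested it, with log2 fold changes of 7.44 to 8.89. No member reversed there. In that class 4 members were called with DESeq2, 4 without the filter on low counts (with Stra6 and without Rdh10), 4 with the term for distal 2 and proximal 2 and 2 with thinned distal sums, against 1, and 0 without clusters E11 and E13. Genes called there were 1515 with DESeq2, 1382 without the filter, 1522 with the term, 127 with thinned sums and 0 without E11 and E13, against 426. In ciliated cells 2 members were called with DESeq2, without the filter and with the term, and 0 with thinned sums, which left no member to test. Genes called there were 56 with median-ratio scaling, 607 with DESeq2, 755 without the filter, 262 with the term, 167 with doublets kept, 341 with at least 5 cells and 56 in E7 and E10 alone, against 91. With at least 5 cells Crabp1 was not tested and Dhrs9 was called. In fibroblasts 1 member was called without the filter and 2 with the term, against 0, with 1376 and 1174 genes called and 146 with thinned sums, against 373. In mesothelium the minimum of 5 cells allowed a test, with 0 members and 2 genes called by edgeR (712 genes at an unadjusted p under 0.05).

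Leaving out 1 library gave 1 to 4 members and 5 to 3243 genes in non-ciliated cells, 0 to 1 members and 0 to 62 genes in ciliated cells, 0 to 1 members and 44 to 1914 genes in fibroblasts, 0 to 1 members in single epithelial clusters and 0 to 1 members for the difference between non-ciliated and ciliated epithelium. The log2 fold change reversed for Cyp26a1 in ciliated cells without proximal 4 (range -6.17 to 2.04 over the 2 such fits that tested it) and for Aldh1a1 in fibroblasts without the filter (-0.05) or without proximal 2 (range -0.14 to 0.15). None of these values was called. The cause was not tested.

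Title numbers and description numbers pair the libraries differently except for number 2, and the labels do not say whether equal numbers mark the same mice. Over genes, deviations of distal 2 and proximal 2 correlated at 0.57 in non-ciliated cells and 0.356 in fibroblasts, those of distal 3 and proximal 3 (equal in the titles) at 0.333 and 0.12, and those of distal 3 and proximal 4 (equal in the descriptions) at 0.378 and 0.042. With 2 such pairs in either set, the pairing was not settled. A replicate block by title number called 2 members in non-ciliated cells (Crabp2 and Cyp26a1) and 1 in fibroblasts (Stra6), and could not be fitted in ciliated cells. It called 575 and 517 genes in these 2 classes, against 426 and 373 in the main fits. A block by description number called 1, 1 and 2 members in non-ciliated cells (Crabp2), ciliated cells (Crabp1) and fibroblasts (Stra6 and Aldh1a3). Genes called with it were 536, 188 and 462, against 426, 91 and 373 in the main fits. The ciliated and mesothelial classes held 64 and 52 proximal cells in all, and those of proximal 3 were too few to enter the main comparisons.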
